A study of Homo sapiens with 36 samples.

Results

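The high and the low dose of Kbr were compared in HK-2 cells after 48 h, on 3 arrays of each dose. HK-2 cells were immortalized from the proximal tubule of a human kidney, where most filtered water, salt, sugar and amino acid is reabsorbed. The 6 arrays were those whose labels give Kbr, the dose as high or low, and 48 h. They were among 36 arrays of the series, 18 of which formed the Kbr set with vehicle, low and high dose at 24 h and at 48 h, 3 arrays in each group. The labels spell out neither the compound nor the doses, so "low" and "high" are used here as they stand, and no ratio of the doses is known. All cells, vehicle included, were grown in 6-well plates in medium with EGF, insulin, transferrin and hydrocortisone, seeded 24 h before treatment and treated shortly before they reached confluence. The replicates are called biological in the labels, which do not say what separated them. The series was designed to find expression signatures of toxicity in renal cells, and comparing 2 doses at 48 h asks which parts of the response to Kbr went further when the dose was raised.

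Cells meet reactive and protein-damaging chemicals with several transcription programs. The factor NRF2 turns on genes for glutathione, thioredoxin and quinone metabolism. Heat shock factors turn on cytosolic chaperones when proteins misfold. ATF4 raises genes for amino acid supply, and the unfolded protein response raises chaperones of the endoplasmic reticulum (ER). Metallothioneins bind zinc, copper and cadmium and are controlled by the zinc sensor MTF1. A tubular cell under stress often loses transporters and other marks of its type while it raises such genes.

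Values are log2 expression, so a difference of 1 is a 2-fold change, and a value under 4 was taken as background. Of 11092 genes tested with limma over all 36 arrays, 2638 passed an adjusted p of 0.05 between the doses, which is 23.8%. Of these, 716 were higher at the high dose (6.46% of all genes) and 1922 were lower (17.3%). The 3 high-dose arrays lay wholly above or wholly below the 3 low-dose arrays for 3399 genes, or 30.6%, and 2231 of those, 20.1% of all genes, also passed the test. A difference of at least 2-fold was reached by 31 of the higher (0.279%) and 352 of the lower genes (3.17%). Same-numbered arrays of the 2 doses gave differences of 1 sign in all 3 pairs for 2618 of the 2638, or 23.6% of all genes. The 2638 were chosen by the mean of those same 3 differences, so this is a description and no separate check.

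The split between rises and falls rests on how the arrays were scaled. The median difference over all genes was -0.06 on the deposited values, and centring each array on its own median moved every difference up by 0.13. After that centring 1492 genes were higher (13.5%) and 1237 lower (11.2%), 24.6% together, and after quantile normalization 1126 (10.2%) and 1285 (11.6%), 21.7% together. The 716 higher genes and 1237 of the 1922 lower ones were called in the same direction with and without centring. Differences below are on the deposited values, and each is 0.06 higher when taken relative to the median of all genes. With the replicate number as a block, 3646 genes passed (32.9%), 1092 higher (9.84%) and 2554 lower (23.0%), and 2637 of them were among the 2638. In a fit of the 6 arrays alone, whose spread rests on 3 arrays a dose, 647 genes passed. Of 134 genes past the test that the naming rule gives, 118 passed after centring, 124 after quantile normalization, 100 in a fit of the 18 Kbr arrays and 47 in the fit of the 6 arrays.

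High-dose replicate 3 stood somewhat apart from the rest. Of the 36 arrays it had the lowest share of probe sets above background (38.4%) and the lowest mean correlation with the other arrays of its group (0.984). Between 38.4% and 39.1% of probe sets lay above background on the 6 arrays, and the 3' minus 5' difference of the actin probes, a sign of RNA breakdown, was 0.82 to 1.28 at the high dose and 0.81 to 1.19 at the low dose. The epithelial keratins KRT8 and KRT18 were abundant at both doses, with group means of 10.7 and 12.8. So was the epithelial adhesion molecule EPCAM (12.8 at the low and 12.7 at the high dose). Other epithelial markers did not hold. CDH1 had a mean of 7.46 in vehicle, 6.22 in low-dose and 4.98 in high-dose cells, and the keratin KRT19 was also lower at the high dose, as given below. The proximal tubule's defining transporters and enzymes were not: LRP2, CUBN, AQP1, SLC34A1, SLC22A6, GGT1 and ANPEP all had means under 4 in vehicle, low-dose and high-dose cells. Markers of leukocytes and endothelium, PTPRC and PECAM1, were also under 4, whereas the fibroblast marker DCN was at 10.0 and 9.85. In bulk RNA, fewer cells of a kind and less RNA per cell cannot be told apart.

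**Figure D1:**
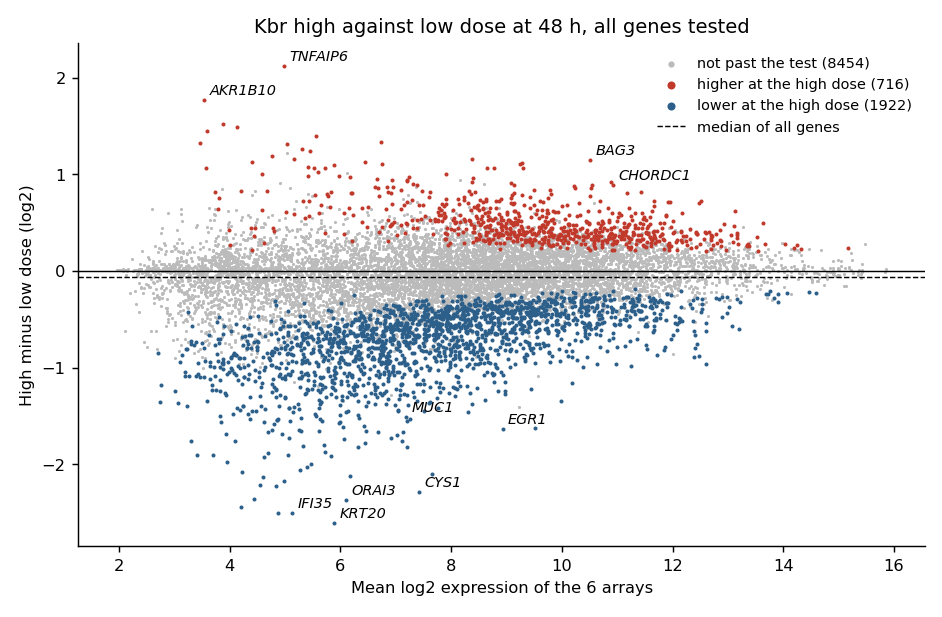
Difference between the doses (log2, y axis) against the mean level of the 6 arrays (log2, x axis) for each of 11092 genes, with 716 genes higher (red) and 1922 lower (blue) past the test. The lower genes reach larger differences than the higher ones, down to -2.61 for KRT20 against 2.12 for TNFAIP6.

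TNFAIP6, which encodes a secreted hyaluronan-binding protein made in inflamed tissue, rose most among genes whose groups did not overlap. It was 3.69, 3.67 and 4.41 on the low-dose arrays and 5.64, 5.97 and 6.51 on the high-dose arrays, so only 1 of the low-dose values was above background. The difference was 2.12 ± 0.29 (± SE throughout, adjusted p = 4.6e-06), at least 4.11-fold over the background level. AKR1B10, an aldo-keto reductase that clears reactive carbonyls, was at background with the low dose (2.78, 2.60 and 2.59) as in vehicle cells, and reached 4.0, 4.74 and 4.55 with the high dose (adjusted p = 1.0e-07). It was thus detected only with the higher exposure, and only just above background. BAG3, a partner of the HSP70 chaperones, rose at a level well above background, from 10.08, 9.69 and 10.05 to 11.07, 10.72 and 11.48 (1.15 ± 0.15, adjusted p = 4.2e-06). TNFRSF10D, a decoy receptor for the death ligand TRAIL, went from 7.35, 7.68 and 8.36 to 8.45, 8.70 and 9.70 (1.15 ± 0.21, adjusted p = 0.000156), and all 3 replicates rose by a similar step although the low-dose replicate 3 began above the others.

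The other large rises were mostly of dim genes. ZHX1-C8orf76, a read-through transcript, rose by 1.52 from a low-dose level of 3.00, 3.32 and 3.05. LSMEM1 (1.45), the calmodulin-like CALML4 (1.26), ZNF530 (1.24) and C4orf36 (1.16) also had low-dose means under 5. RPS16P5 (1.40), a ribosomal protein pseudogene, and the histone gene H2AC6 (1.19) have near-identical copies, so their probes may read other genes as well. FOSL1, an AP-1 subunit, rose by 1.33 with SE 0.49 (adjusted p = 0.0466, 0.0001 with the replicate block). Its call depended on single arrays, with an adjusted p of 0.0804 to 0.244 without high-dose replicates 1 and 3 or low-dose replicates 1 and 2, each left out alone, although each pair rose, by 1.21, 1.6 and 1.19.

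KRT20, a keratin of glandular epithelium, fell most. It was 7.14, 7.68 and 6.77 with the low dose and 4.56, 4.71 and 4.49 with the high dose, against 7.85, 9.01 and 8.89 in vehicle cells (-2.61 ± 0.32, adjusted p = 1.4e-06). The high-dose arrays agreed closely with each other and lay 6.09-fold below the low dose. CYS1, which encodes a protein of the primary cilium, fell from 8.89, 8.66 and 8.13 to 6.78, 6.12 and 5.93 (-2.28 ± 0.24, adjusted p = 1.3e-07), and ORAI3, a subunit of store-operated calcium channels, from 7.44, 7.29 and 7.12 to 5.51, 4.94 and 4.30 (-2.37 ± 0.22, adjusted p = 1.6e-08). Both had already been lower with the low dose than in vehicle cells, with differences of -2.18 and -1.36. HOGA1, a mitochondrial enzyme of hydroxyproline breakdown, reached background with the high dose (3.83, 2.86 and 2.26, against 5.68, 5.46 and 5.13), a fall of at least 2.69-fold.

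IFI35, an interferon-induced gene, fell by 2.50 but unevenly, to 3.49, 2.99 and 5.14. DCLK1, a microtubule-associated kinase, was 6.36, 6.12 and 5.87 and then under 4 on all high-dose arrays. Falls of -2.36 for NFE2L3, a relative of NRF2, -2.22 for the sterol reductase TM7SF2, -2.22 for EEIG2, -2.18 for the peroxisomal hydrolase NUDT7, -2.13 for FAM228B and -2.12 for SLC44A5 complete the 12 largest. For 3 of these genes the size depended on the probe set: other probe sets gave -0.20 for DCLK1, -0.64 for NFE2L3 and -0.03 for SLC44A5. Among the 24 largest rises and falls, adjusted p in the fit of the 6 arrays was above 0.05 for IFI35 (0.0531), LSMEM1 (0.0519), RPS16P5 (0.0623), FOSL1 (0.145), CALML4 (0.0671), H2AC6 (0.0882), C4orf36 (0.0796) and TNFRSF10D (0.143).

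**Figure D2:**
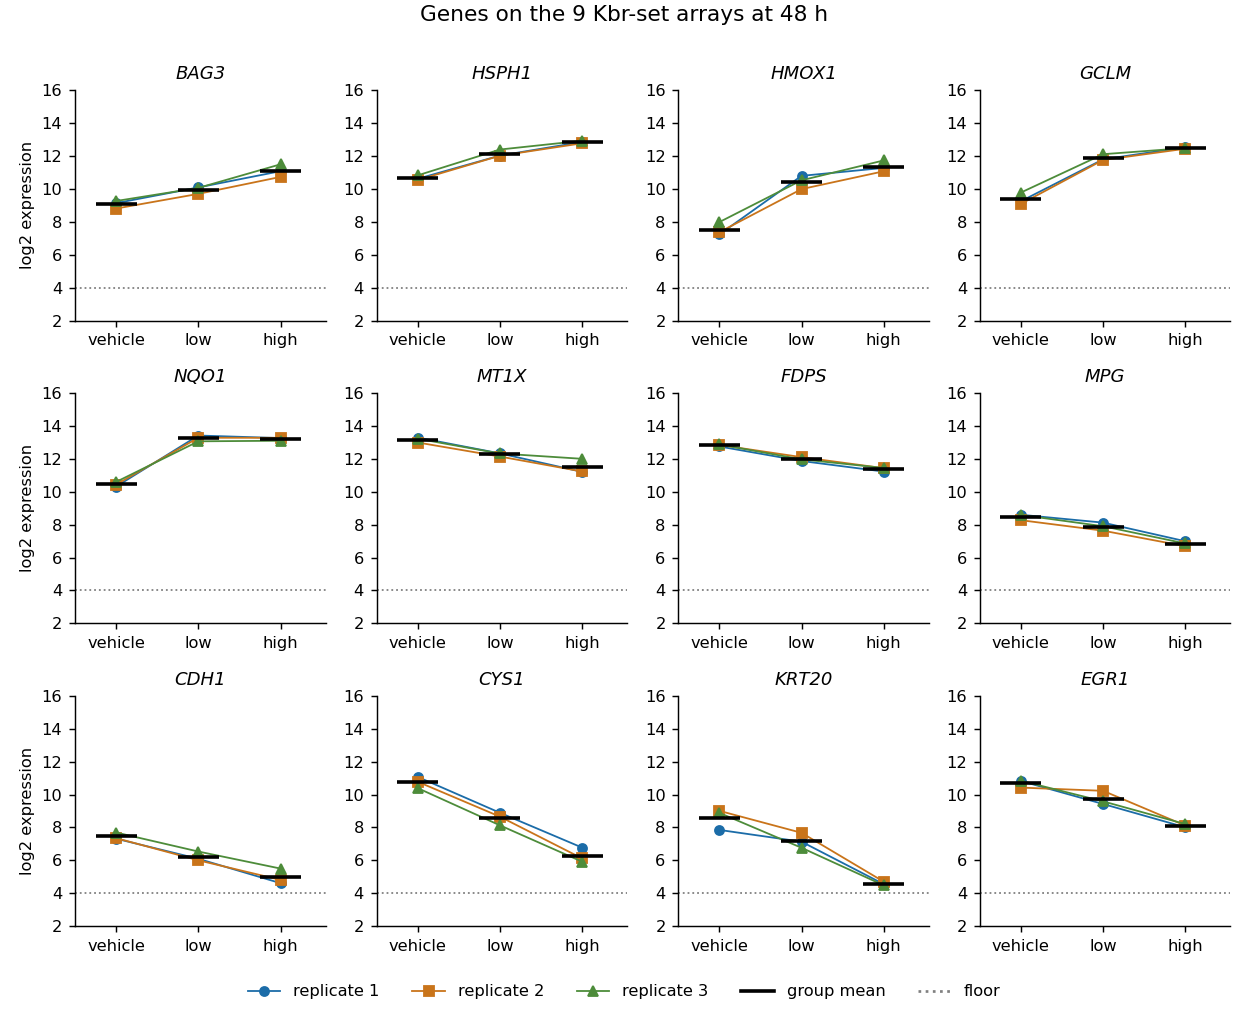
Log2 expression (y axis) of 12 genes on the vehicle, low-dose and high-dose arrays at 48 h, with a line for each replicate number, black bars at the group means and a dotted line at the background level of 4. NQO1 has nearly equal means at both doses (-0.04 ± 0.13), whereas BAG3 climbs further (1.15 ± 0.15) and CYS1 and KRT20 fall further (-2.28 ± 0.24 and -2.61 ± 0.32).

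**Figure D3:**
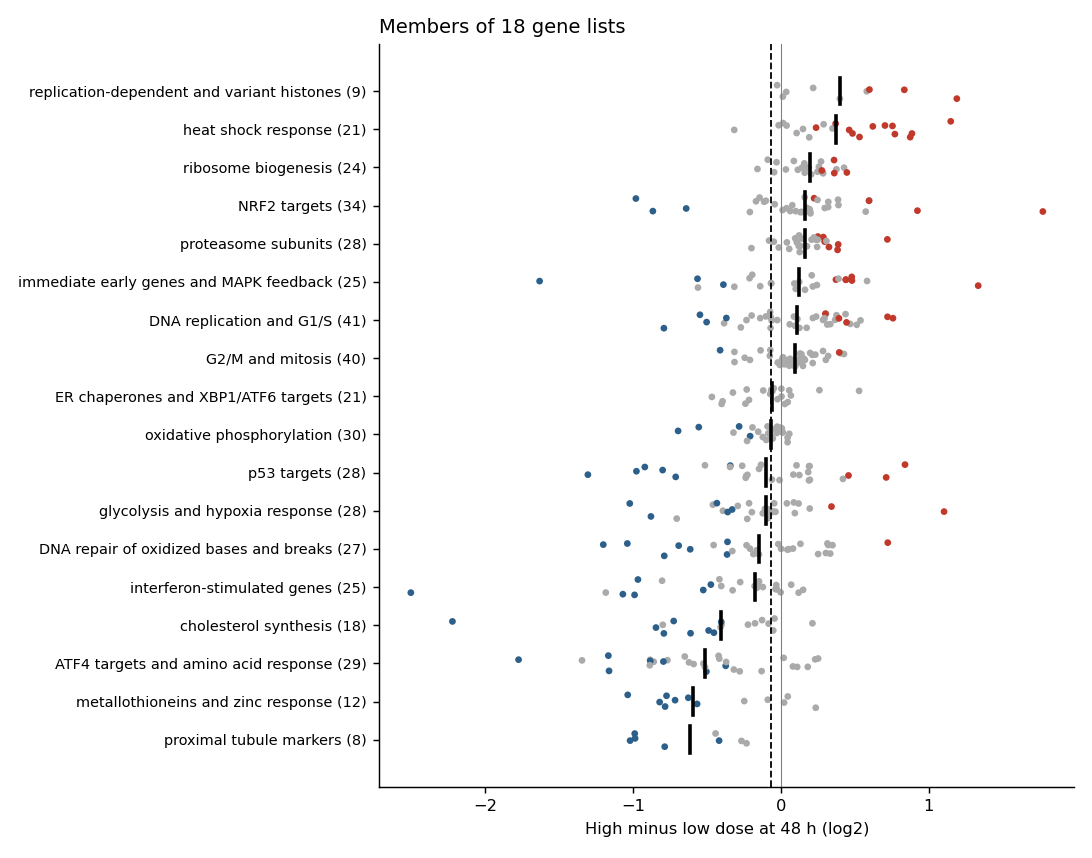
Difference between the doses (log2, x axis) of each measured member of 18 gene lists, with the number of members in brackets, red and blue points for members past the test, a black bar at the list's median and a dashed line at the median of all genes. Heat shock genes lie to the right, with 12 of 21 past the test and a median of 0.37. Genes of the metallothionein and zinc list lie to the left, with 7 of 12 past it and a median of -0.60.

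Cytosolic chaperones rose with the dose. Of 21 measured genes of the heat shock list, 12 were higher and none lower, against 6.46% and 17.3% of all genes, and the list's median difference was 0.37 against -0.06. After median centring 15 were higher, and leaving out any 1 array left 8 to 11. BAG3 led, and CHORDC1, a co-chaperone of HSP90, went from 10.48, 10.23 and 10.72 to 11.50, 11.15 and 11.44 (0.89 ± 0.15, adjusted p = 7.3e-05). HSPH1, the nucleotide exchange factor that lets HSP70 release its clients, rose from 12.01, 12.00 and 12.38 to 12.84, 12.76 and 12.91 (0.70 ± 0.10, adjusted p = 7.7e-06). Its 3 pairs moved by 0.83, 0.75 and 0.53, the smallest step being that of replicate 3, which had been highest with the low dose.

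The 3 J-domain genes of the list, whose proteins hand clients to HSP70, were among the 12. DNAJA1 went from 12.66, 12.76 and 13 to 13.34, 13.38 and 13.57 (0.62 ± 0.10, adjusted p = 5.3e-05). DNAJB4 rose by 0.76 ± 0.17 (adjusted p = 0.00155) and DNAJB1 by 0.77 ± 0.22 (adjusted p = 0.0095). The DNAJB1 groups overlapped because replicate 3 was high in both (10.10, 9.62 and 10.67 and 10.70, 10.45 and 11.57), and its adjusted p was 0.12 without high-dose replicate 3 and 0.101 without low-dose replicate 2. ZFAND2A, which binds the proteasome under stress, rose by 0.87 (adjusted p = 0.0584 without low-dose replicate 3), and HSPA4, an HSP110 relative, by 0.48 ± 0.08, though its 4 probe sets ran from -0.42 to 0.69.

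Smaller rises completed the list, and their calls rested on single arrays. The small heat shock protein HSPB8 rose by 0.53 ± 0.14 (adjusted p = 0.00549; 0.0733 without low-dose replicate 1) and the mitochondrial co-chaperonin HSPE1 by 0.46 ± 0.15 (adjusted p = 0.0216; 0.0924 to 0.132 without high-dose replicate 3 or low-dose replicates 1 and 2, each left out alone). STIP1, which links HSP70 to HSP90, rose by 0.37 ± 0.13 (adjusted p = 0.0335; 0.0565 to 0.218 without high-dose replicates 1 and 3 or low-dose replicates 1 and 2, each left out alone). HSP90AA1, the inducible HSP90, rose by 0.24 ± 0.08 (adjusted p = 0.0227, 0.0839 after quantile normalization; 0.0532 to 0.0793 without high-dose replicates 1 and 2 or low-dose replicates 1 and 2, each left out alone). HSPA1A and HSPA1B, the inducible HSP70 genes, were not tested because their probe sets name more than 1 gene. The strictly inducible HSPA6 stayed under 4 on all 6 arrays, and the crystallin CRYAB differed by -0.32 ± 0.14 (adjusted p = 0.0929, 0.0405 with the block). HSPB1 and FKBP4, with differences of 0.19 and 0.35 (adjusted p = 0.0956 and 0.139), passed with the block (0.0328 and 0.0153) and after centring (0.0108 and 0.0367).

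Heat shock factors bind repeats of GAA in alternating orientation, and the letters GAANNTTC were searched on both strands of RefSeq promoter windows from 250 bases before to 50 after a gene's start (GRCh38.p14). They occur in 6.77% of 35116 windows. Of the 12 heat shock genes past the test, all with a window, 3 hold them, CHORDC1, DNAJA1 and HSPB8 (0.0733 without low-dose replicate 1), which is 25%. Of the 21 tested genes of the list 18 had a window, and 6 of those hold the letters, or 33.3%. The letters were thus not more common among the genes that rose than in the list. The 250 bases before the CHORDC1 start are shown because it holds 3 matches, in capitals, at -205, -60 and -50 from the start, on chromosome 11, minus strand, 90223050 to 90223299. The last 2 lie 2 bases apart and so form a longer alternating run.
CHORDC1: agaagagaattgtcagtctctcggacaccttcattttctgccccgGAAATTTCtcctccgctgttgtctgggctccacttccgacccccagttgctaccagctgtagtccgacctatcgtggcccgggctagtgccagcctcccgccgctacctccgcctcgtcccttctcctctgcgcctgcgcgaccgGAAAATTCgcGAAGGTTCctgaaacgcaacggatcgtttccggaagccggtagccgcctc

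Proteasome subunits rise under the factor NRF1 when protein breakdown is strained. Of 28 measured, 7 were higher and none lower, against 6.46% and 17.3% of all genes, with a median of 0.16. After centring 11 were higher, where 13.5% of all genes were, and after quantile normalization 4, where 10.2% were. With the block 11 were higher and 1 lower, against 9.84% and 23.0% of all genes. The number higher fell to 1 without low-dose replicate 1 and to 3 without high-dose replicate 2 or 3. PSMD12, a lid subunit, was the clearest, at 10.91, 11.39 and 11.59 and 11.84, 12.10 and 12.12 (0.72 ± 0.15, adjusted p = 0.000701, 0.0865 on the 6 arrays alone). With the low dose 27 of the 28 subunits were already above vehicle, against 23.8% of all genes above and 23.2% below, and the dose comparison shares those low-dose arrays.

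Ribosome biogenesis genes, the nucleolar factors that process ribosomal RNA, were higher for 5 of 24 and lower for none, or 20.8% and 0% against 6.46% and 17.3% of all genes. The median was 0.20, and centring gave 13 higher and the block 9. The count was 3 without high-dose replicate 1 or low-dose replicate 2 and 2 without low-dose replicate 3. NCL, the nucleolin gene, went from 13.27, 13.18 and 13.19 to 13.49, 13.50 and 13.50 (0.28 ± 0.08, adjusted p = 0.0129), a small step with no overlap between the doses.

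NRF2 targets divided. With the low dose 26 of 34 were already above vehicle and 1 below, against 23.8% of all genes above and 23.2% below. With the high dose it was 28 and 2, against 27.3% of all genes above and 34.5% below. Between the doses only 4 were higher and 3 lower, or 11.8% and 8.82%, against 6.46% and 17.3% of all genes, and the median was 0.16. After centring 6 were higher and 3 lower, and without high-dose replicate 3, 7 and 3. The genes that moved on were AKR1B10, described above, and HMOX1, which encodes heme oxygenase. HMOX1 was 7.22, 7.36 and 7.98 in vehicle cells, 10.78, 9.98 and 10.51 with the low dose and 11.26, 11.06 and 11.72 with the high dose (0.92 ± 0.19, adjusted p = 0.000786, 0.0942 on the 6 arrays alone). GCLM, the modifier subunit of the enzyme that starts glutathione synthesis, rose from 11.78, 11.75 and 12.10 to 12.52, 12.43 and 12.47 (0.60 ± 0.15, adjusted p = 0.00551).

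Several of the strongest responders of this program did not pass between the doses. NQO1, a quinone reductase, was 13.41, 13.27 and 13.05 with the low dose and 13.25, 13.27 and 13.09 with the high dose, against 10.31, 10.43 and 10.59 in vehicle cells. Its difference was -0.04 ± 0.13 (adjusted p = 0.867). SRXN1, which repairs oxidized peroxiredoxins, differed by 0.04 ± 0.16 (adjusted p = 0.906). SLC7A11, the cystine importer, differed by -0.21 ± 0.43 (adjusted p = 0.785), and its replicate 3 was lowest in every group, at 11.44, 11.73 and 10.05 with the low dose and 11.56, 11.72 and 9.31 with the high dose. The SE of SLC7A11 was the widest of the 3.

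TXNRD1, thioredoxin reductase, differed by 0.20 ± 0.11, with pair differences of 0.19, 0.18 and 0.22 that lie close together. Its adjusted p was 0.193, 0.0255 with the replicate block, 0.0471 after centring and 0.0423 without high-dose replicate 3. Thioredoxin itself, TXN, rose by 0.22 ± 0.07 (adjusted p = 0.0168; 0.104 without high-dose replicate 2 and 0.0519 without low-dose replicate 1). The members that fell were ABCC3, an efflux pump for conjugates (-0.98 ± 0.18, adjusted p = 0.00021), TRIM16L, at or near background (-0.87 ± 0.21, adjusted p = 0.00266), and PIR, an iron-binding nuclear protein (-0.64 ± 0.13, adjusted p = 0.000471). PIR had risen with the low dose and went part of the way back (8.36, 8.60 and 8.79, then 10.09, 9.96 and 10.16, then 9.28, 9.48 and 9.52). ABCC3 has 5 probe sets whose differences ran from -0.98 to 0.34. TXNIP, the thioredoxin inhibitor, was under 4 on every array of both doses, against 4.16, 6.24 and 6.71 in vehicle cells.

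The core of the antioxidant response element, TGACNNNGC, to which NRF2 binds with small MAF proteins, occurs in 13.3% of the promoter windows. Of the 7 NRF2 targets past the test, 3 had a window, and 2 of those, GCLM and PIR, hold the letters. Of the 34 tested targets 26 had a window, and 7 of those hold the letters, or 26.9%. The GCLM window is shown because the gene rose with each step of dose. Its match, in capitals and on the minus strand of the gene, lies 34 to 26 bases before the start, on chromosome 1, minus strand, 93909431 to 93909680.
GCLM: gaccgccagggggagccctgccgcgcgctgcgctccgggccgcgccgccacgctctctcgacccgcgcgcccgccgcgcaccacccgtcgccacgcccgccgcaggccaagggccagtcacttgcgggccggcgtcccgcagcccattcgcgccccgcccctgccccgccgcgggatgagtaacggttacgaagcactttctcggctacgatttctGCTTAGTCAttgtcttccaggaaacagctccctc

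Metallothioneins fell with the dose. Of 12 measured genes of the zinc list, 7 were lower and none higher, or 58.3% lower against 17.3% of all genes, with a median of -0.60. The same 7 was the count after centring, after quantile normalization and with the block, and 6 or 7 with any 1 array left out. MT1E went from 12.32, 12.19 and 12.25 to 11.31, 11.14 and 11.85 (-0.82 ± 0.11, adjusted p = 3.2e-06) and MT1X from 12.32, 12.13 and 12.31 to 11.20, 11.22 and 11.99 (-0.78 ± 0.14, adjusted p = 0.000219). MT2A, the most abundant, went from 13.41, 13.26 and 13.43 to 12.59, 12.52 and 13.29 (-0.57 ± 0.12, adjusted p = 0.000947), with an overlap through high-dose replicate 3. MT1F (-0.77) and MT1H (-0.72) fell without overlap, and MT1G (-0.63, adjusted p = 0.00551; 0.0559 without high-dose replicate 2) with it.

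High-dose replicate 3 was the highest of the 3 for each of these 6 genes. The MT1X pairs moved by -1.12, -0.91 and -0.32 and the MT2A pairs by -0.82, -0.74 and -0.14, so replicate 3 shows a much smaller fall than replicates 1 and 2. SLC30A2, a zinc exporter, fell by 1.04 ± 0.24 (adjusted p = 0.00222) without that exception, from 7.16, 7.58 and 6.84 to 6.51, 6.29 and 5.67. SLC30A1, the plasma membrane zinc exporter and also a target of MTF1, differed by 0.05 ± 0.08 (adjusted p = 0.745). The metallothionein genes are near-identical copies of each other, and probes for any of them may read others, so they are not independent measurements. In the fit of the 6 arrays none of the 7 passed, with adjusted p from 0.0644 for MT1E to 0.192 for MT1G.

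MTF1 binds metal response elements, searched here as TGCGCNC and TGCACNC, a pair of forms added after values had been seen. They occur in 20.0% and 12.1% of windows. A window was given for 4 of the 7 genes that fell, MT1H, MT1X, MT2A and SLC30A2, and each of the 4 holds both forms. Of the 12 tested genes 7 had a window, and 4 of those hold TGCGCNC and 5 TGCACNC. SLC30A1, which did not pass, is among the 5. TGCGCNC is not particular to this list. Of the genes past the test with a window, 4 of 7 ATF4, 2 of 3 NRF2 and 3 of 12 heat shock genes hold it. The MT1X and MT2A windows are shown because these genes moved together. Matches on either strand are in capitals, 4 in MT1X (chromosome 16, plus strand, 56682220 to 56682469) and 7 in MT2A (chromosome 16, plus strand, 56608334 to 56608583).
MT1X: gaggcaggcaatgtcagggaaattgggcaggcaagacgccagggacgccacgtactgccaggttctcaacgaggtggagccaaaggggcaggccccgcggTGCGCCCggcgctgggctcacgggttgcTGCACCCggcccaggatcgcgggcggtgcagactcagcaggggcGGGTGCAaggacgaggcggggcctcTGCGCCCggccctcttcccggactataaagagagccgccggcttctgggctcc
MT2A: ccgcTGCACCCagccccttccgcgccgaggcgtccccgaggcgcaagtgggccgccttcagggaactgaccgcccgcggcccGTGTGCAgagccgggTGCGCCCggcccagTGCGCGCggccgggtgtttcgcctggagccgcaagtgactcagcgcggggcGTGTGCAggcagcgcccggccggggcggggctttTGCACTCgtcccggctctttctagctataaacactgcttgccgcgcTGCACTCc

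Of 29 ATF4 target and amino acid supply genes, 7 were lower and none higher, or 24.1% lower against 17.3% of all genes, with a median of -0.51. After centring 4 were lower, where 11.2% of all genes were, and with the replicate block 12 were lower. CBS, which starts transsulfuration of homocysteine, fell from 8.09, 7.13 and 6.76 to 5.88, 5.59 and 5.19 (-1.77 ± 0.24, adjusted p = 4.1e-06) and passed under every alternative tried. VLDLR, a lipoprotein receptor, fell from 8.73, 8.58 and 8.62 to 8.21, 7.83 and 7.50 (-0.80 ± 0.14, adjusted p = 0.000156). ASNS, asparagine synthetase, had risen with the low dose and was lower with the high dose, at 10.04, 9.17 and 9.20, then 11.71, 11.08 and 9.52, then 10.61, 10.12 and 8.10 (-1.16 ± 0.41, adjusted p = 0.0374, 0.0528 after centring; 0.13 to 0.422 without high-dose replicate 3 or low-dose replicates 1 and 2, each left out alone). Its pairs were alike, at -1.10, -0.97 and -1.42, although the arrays themselves overlap.

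The overlap came from replicate 3, which was the lowest treated array for much of this program. DDIT3, the CHOP gene, was 13.31, 13.19 and 10.79 with the low dose and 12.69, 12.61 and 9.41 with the high dose, and HSPA5, the main ER chaperone, was 15.37, 15.02 and 13.64 and 15.28, 15.01 and 13.82. In vehicle cells replicate 3 did not stand apart for HSPA5 (13.04, 12.72 and 12.92). Replicate 3 of both doses was lowest for ASNS, TRIB3, DDIT4 and PSAT1 too. Leaving out low-dose replicate 3 raised the number of ATF4 genes lower from 7 to 16, and leaving out high-dose replicate 1 raised it to 13. Leaving out high-dose replicate 3 or low-dose replicate 1 reduced it to 3, and centring gave 4.

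Several calls depended on single arrays. DDIT4, an inhibitor of mTOR signalling, fell by 0.88 ± 0.25 (adjusted p = 0.0102), with 0.142 without high-dose replicate 3 and 0.0767 without low-dose replicate 1. PCK2, the mitochondrial form of a gluconeogenic enzyme, fell by 1.17 ± 0.33 (adjusted p = 0.0102), with 0.12 without high-dose replicate 3 and 0.132 without low-dose replicate 1. PSAT1, of serine synthesis, fell by 0.50 ± 0.18 (adjusted p = 0.0394), with 0.0867 after centring and 0.164 to 0.374 without high-dose replicate 3 or low-dose replicates 1 and 2, each left out alone. ATF4 itself fell by 0.37 ± 0.09 from 13.19, 13.29 and 13.12 (adjusted p = 0.00273), with 0.0689 after centring. TRIB3, CHAC1 and PHGDH, with differences of -0.52, -1.35 and -0.65, missed the threshold (0.0855, 0.0541 and 0.107) and passed with the block (0.0469, 0.0137 and 0.00149). For TRIB3 it was 0.00955 to 0.0445 without high-dose replicates 1 and 2 or low-dose replicate 3, each left out alone. For CHAC1 it was 0.00638 without high-dose replicate 1. For PHGDH it was 0.0159 without high-dose replicate 1 and 0.0202 without low-dose replicate 3. The CEBP-ATF site, searched as TGATGCAA, occurs in 0.866% of promoter windows. None of the 7 ATF4 genes past the test holds it, and of 24 tested genes with a window only CHAC1 does.

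DDIT3 and ATF3, 2 stress factors of this program, did not pass. DDIT3 differed by -0.86 ± 0.58 (adjusted p = 0.31), with pair differences of -0.62, -0.58 and -1.38, and it reached 0.0285 without low-dose replicate 3. ATF3 differed by -0.13 ± 0.69 (adjusted p = 0.934), with pair differences of 0.44, 0.15 and -0.98 that disagree in sign. Their SEs are wide because replicate 3 lay far from the others. Of 17 tRNA synthetase genes, which ATF4 also raises, 2 were lower, AARS1 (-0.94 ± 0.25, adjusted p = 0.00626) and LARS1 (-0.41 ± 0.10, adjusted p = 0.00465), and none higher. That is 11.8% lower, a smaller share than the 17.3% of all genes. With the block 6 were lower, after centring 2 were lower and 1 higher, and the number ran from 0 without low-dose replicate 1 and 1 without high-dose replicate 3 to 7 without high-dose replicate 1 and 8 without low-dose replicate 3. The AARS1 call was lost at 0.0574 without high-dose replicate 3 and 0.0957 without low-dose replicate 1, and that of LARS1 at 0.0597 without low-dose replicate 1.

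None of 21 ER chaperone genes passed by limma, none with the block and none after centring or quantile normalization, and none of the 21 had an unadjusted p under 0.05. HSPA5 differed by 0.03 ± 0.28 (adjusted p = 0.97) and DNAJB9, an ER co-chaperone, by 0.0031 ± 0.44 (adjusted p = 0.998). With the low dose 15 of the 21 were already above vehicle, and with the high dose 15, against 23.8% and 27.3% of all genes. Without low-dose replicate 3, 3 were lower, without low-dose replicate 1, 1 was higher and without high-dose replicate 3, 2 were higher.

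**Figure D4:**
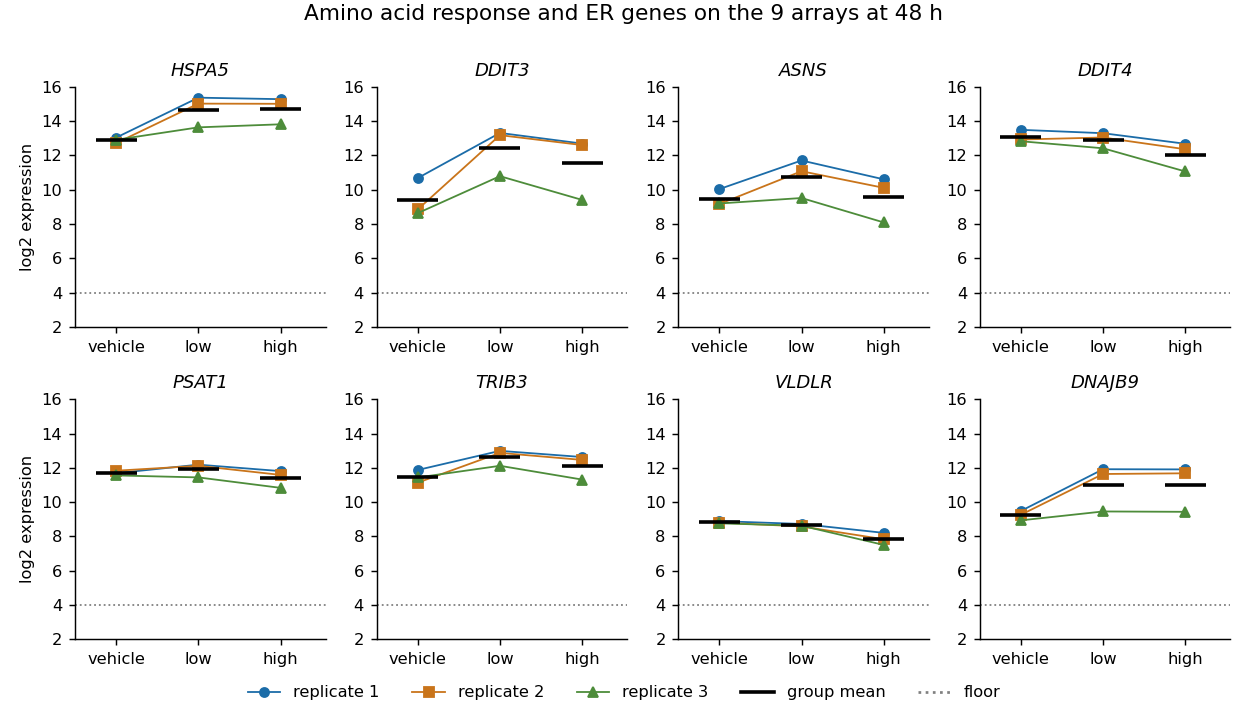
Log2 expression (y axis) of 8 genes of the ATF4 and ER programs on the vehicle, low-dose and high-dose arrays at 48 h, with a line for each replicate number and black bars at the group means. Replicate 3 lies below replicates 1 and 2 on the treated arrays of HSPA5 and DNAJB9, and each replicate's line falls from the low to the high dose for ASNS, DDIT4 and PSAT1.

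The p53 list held genes moving both ways, with 3 of 28 higher and 6 lower and a median of -0.10. That is 10.7% and 21.4%, not far from the 6.46% and 17.3% of all genes. After centring 5 were higher and 5 lower. DDB2 and XPC, which recognize DNA lesions for nucleotide excision repair, fell (-1.31 ± 0.20, adjusted p = 1.7e-05, and -0.92 ± 0.15, adjusted p = 3.6e-05). DDB2 went from 6.44, 6.45 and 6.31 to 4.59, 5.47 and 5.22, against 7.59, 7.49 and 7.88 in vehicle cells, so it stood lower at each step of dose. TP53I3, a quinone oxidoreductase, fell by 0.80 ± 0.11 (adjusted p = 4.1e-06), and BAX, which permeabilizes mitochondria in apoptosis, fell by 0.98 ± 0.25 (adjusted p = 0.00446; 0.0503 without high-dose replicate 2). TP53INP1 fell by 0.71 ± 0.17 (adjusted p = 0.00335, 0.0769 after quantile normalization) and CCNG1 fell by 0.34 ± 0.09 (adjusted p = 0.00754, 0.119 after centring).

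The 3 p53 targets that rose were SERTAD1, PMAIP1 and PPM1D. SERTAD1, a cell cycle regulator, went from 6.52, 6.30 and 7.20 to 7.37, 7.52 and 7.65 (0.84 ± 0.20, adjusted p = 0.00313). PMAIP1, the NOXA gene, a trigger of apoptosis that ATF4 can also raise, went from 11.34, 11.60 and 11.85 to 12.19, 12.30 and 12.43 (0.71 ± 0.20, adjusted p = 0.0108; 0.071 without low-dose replicate 1). PPM1D, a phosphatase that quenches p53, rose by 0.46 ± 0.14 (adjusted p = 0.0207; 0.11 without high-dose replicate 1 and 0.0738 without low-dose replicate 2). The cell cycle inhibitor CDKN1A differed by 0.20 ± 0.10 (adjusted p = 0.17, 0.0201 after centring), MDM2, the ligase that degrades p53, by -0.23 ± 0.16 (adjusted p = 0.336) and the secreted factor GDF15 by -0.26 ± 0.19 (adjusted p = 0.351; 0.0498 without low-dose replicate 3). All 3 had been above vehicle with the low dose, by 1.31, 0.78 and 2.35.

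Of 27 genes for repair of oxidized bases and breaks, 7 were lower and 1 higher, or 25.9% and 3.70% against 17.3% and 6.46% of all genes, with a median of -0.15. MPG, a glycosylase for alkylated bases, went from 8.12, 7.63 and 7.90 to 6.99, 6.69 and 6.85 (-1.04 ± 0.14, adjusted p = 4.0e-06). NTHL1, which removes oxidized pyrimidines, went from 5.40, 6.06 and 6.13 to 4.23, 4.28 and 5.48 (-1.20 ± 0.25, adjusted p = 0.000759), with an overlap through high-dose replicate 3. SMUG1, a uracil glycosylase, fell by 0.79 ± 0.16 (adjusted p = 0.000593) and the abundant endonuclease APEX1 fell by 0.36 ± 0.06 (adjusted p = 0.000142).

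The scaffold XRCC1 fell by 0.69 ± 0.18 (adjusted p = 0.00656, 0.106 after quantile normalization and 0.0686 without low-dose replicate 1). Its partner LIG3 fell by 0.36 ± 0.10 (adjusted p = 0.00657, 0.0756 after centring and 0.352 after quantile normalization). OGG1, the glycosylase for 8-oxoguanine, fell by 0.61 ± 0.20 (adjusted p = 0.0276) and lost the call under several settings, at 0.0737 after centring, 0.239 after quantile normalization and 0.0614 to 0.225 without high-dose replicates 1 and 2 or low-dose replicates 1 and 3, each left out alone. After quantile normalization 4 of the list were lower, where 11.6% of all genes were, and after centring 5, with 2 higher. The member that rose, EXO1, is an exonuclease of replication and mismatch repair, and went from 8.23, 8.67 and 8.63 to 9.05, 9.41 and 9.23 (0.72 ± 0.16, adjusted p = 0.00119). None of these but MPG passed in the fit of the 6 arrays (0.0261).

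Replication genes moved both ways, with 5 of 41 higher and 4 lower (median 0.11), or 12.2% and 9.76% against 6.46% and 17.3% of all genes. Initiation factors were among the higher ones. MCM10 went from 8.37, 8.78 and 8.95 to 9.44, 9.62 and 9.33 (0.76 ± 0.18, adjusted p = 0.00313) and ORC6, a subunit of the origin recognition complex, rose by 0.72 ± 0.21 (adjusted p = 0.0115; 0.051 without low-dose replicate 1). RFC4, of the clamp loader, fell by 0.37 with SE 0.13 (adjusted p = 0.0351, 0.182 after centring; 0.0766 to 0.358 without high-dose replicate 3 or low-dose replicates 1 and 2, each left out alone). RFC3, another subunit of it, rose by 0.44 ± 0.11, and FEN1, which trims Okazaki fragments, by 0.39 ± 0.09 (adjusted p = 0.00423 and 0.00207). PRIM1, the primase, fell from 9.98, 9.80 and 9.69 to 9.28, 9.11 and 8.71 (-0.79 ± 0.11, adjusted p = 3.6e-06) and MCM6, a helicase subunit, fell by 0.50 ± 0.10 (adjusted p = 0.000505). LIG1 fell by 0.55 ± 0.20 with an adjusted p of 0.0486, and of 0.123 after centring, 0.253 after quantile normalization and 0.0538 to 0.148 without high-dose replicates 1 and 2 or low-dose replicates 1, 2 and 3, each left out alone. The direction of the list as a whole rests on scaling, since 12 were higher and 2 lower after centring and 7 of each passed with the block. Without low-dose replicate 1, 4 were higher and 2 lower. MCM5 differed by -0.07 ± 0.14 (adjusted p = 0.777).

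Mitotic genes, of which 32 of 40 were above vehicle with the low dose, against 23.8% of all genes, went little further. Only TTK, a spindle checkpoint kinase, was higher, by 0.39 ± 0.13 (adjusted p = 0.0236; 0.0747 to 0.18 without high-dose replicates 2 and 3 or low-dose replicate 1, each left out alone), and CDC25B, a phosphatase that starts mitosis, fell by 0.41 ± 0.14 (adjusted p = 0.0375, 0.17 after centring; 0.0604 to 0.153 without high-dose replicates 2 and 3 or low-dose replicates 1 and 2, each left out alone). These calls are 2.5% of the list each way, against 6.46% higher and 17.3% lower of all genes. After centring 7 were higher and none lower. CCNB1, cyclin B1, differed by 0.08 ± 0.11 (adjusted p = 0.662) and MKI67 by 0.28 ± 0.17 (adjusted p = 0.256). Of 9 measured histone genes 3 were higher and none lower, H2AC6, H2BC12 (8.97, 9.34 and 9.80, then 10.01, 10.08 and 10.53) and H2BC5 (0.60 ± 0.17, adjusted p = 0.0114; 0.105 without high-dose replicate 3 and 0.101 without low-dose replicate 1). That is 33.3% higher, against 6.46% of all genes. H2BC12 and H2AC6 had fallen below vehicle with the low dose (differences of -0.66 and -0.81), and their high-dose means were near those of vehicle again.

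Cholesterol synthesis fell along the pathway. Of 18 genes 8 were lower and none higher, or 44.4% lower against 17.3% of all genes, with a median of -0.41. After centring 5 were lower, where 11.2% of all genes were, and 5 were lower without low-dose replicate 3. In pathway order, the kinase PMVK fell from 7.39, 7.04 and 7.17 to 6.51, 6.47 and 6.24 (-0.79 ± 0.13, adjusted p = 5.4e-05) and FDPS, which makes farnesyl diphosphate, from 11.86, 12.09 and 11.96 to 11.22, 11.42 and 11.44 (-0.61 ± 0.08, adjusted p = 4.6e-06). LSS, which closes the sterol rings, fell from 9.38, 9.14 and 9.35 to 8.69, 8.41 and 8.59 (-0.73 ± 0.11, adjusted p = 2.4e-05). TM7SF2, the reductase that follows, fell to background (-2.22 ± 0.22, adjusted p = 5.1e-08). These 4 genes passed under every alternative tried, the 6 arrays alone included, and all 4 were already below vehicle with the low dose.

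The other 4 calls were less firm. The kinase MVK fell by 0.85 ± 0.27 (adjusted p = 0.0216, 0.0957 after quantile normalization; 0.055 to 0.0768 without high-dose replicates 2 and 3 or low-dose replicates 1 and 3, each left out alone) and the epoxidase SQLE fell by 0.40 ± 0.10 (adjusted p = 0.00292, 0.0834 after centring). DHCR7, the last reductase, fell by 0.45 ± 0.16 (adjusted p = 0.0392, 0.12 after centring; 0.065 to 0.168 without high-dose replicates 1 and 2 or low-dose replicates 1 and 3, each left out alone). SREBF2, which encodes the transcription factor that drives the pathway, fell by 0.49 ± 0.17 (adjusted p = 0.0361, 0.0953 after centring and 0.161 after quantile normalization; 0.0835 to 0.174 without high-dose replicate 2 or low-dose replicates 1 and 3, each left out alone), and its 3 probe sets ran from -0.49 to 0.52. HMGCS1, the synthase near the head of the pathway, differed by -0.13 ± 0.13 (adjusted p = 0.539).

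Of 28 hypoxia and glycolysis genes, 2 were higher and 5 lower (median -0.10), or 7.14% and 17.9%, near the 6.46% and 17.3% of all genes, and 3 and 2 after centring. ADM, adrenomedullin, climbed from 4.99, 5.95 and 5.85 in vehicle cells to 8.85, 8.71 and 8.49 and then to 9.92, 9.85 and 9.59 (1.10 ± 0.21, adjusted p = 0.000301), and its 3 pairs rose by nearly the same step, 1.07, 1.14 and 1.10. PDK1, a kinase that keeps pyruvate out of mitochondria, fell from 8.74, 8.15 and 7.94 to 7.55, 7.28 and 6.92 (-1.02 ± 0.16, adjusted p = 4.2e-05) and ENO2, an enolase, from 8.50, 8.16 and 8.33 to 7.77, 7.30 and 7.28 (-0.88 ± 0.21, adjusted p = 0.00281). All 3 genes are targets of hypoxia-inducible factors. KDM3A, another such target, rose by 0.34 ± 0.10 (adjusted p = 0.0157; 0.0508 to 0.0737 without high-dose replicates 1 and 2 or low-dose replicate 3, each left out alone). SLC2A1, the glucose transporter, differed by 0.09 ± 0.13 (adjusted p = 0.669). The count was 3 lower and 1 higher without high-dose replicate 1 or 2, and 2 of each without low-dose replicate 1. Of 30 respiratory chain genes 4 were lower, or 13.3% against 17.3% of all genes, none higher, and the median was -0.06, that of all genes. ATP5MC1, of the ATP synthase ring, fell by 0.70 ± 0.14 (adjusted p = 0.000403), most of the 4. After centring 2 were lower, and without low-dose replicate 1, 1.

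Proximal tubule genes that the line still expressed fell further. Of 32 listed genes 30 had a probe set and only 8 were above background often enough to test, and 5 of the 8 were lower, with a median of -0.61. That is 62.5% of a short list, against 17.3% of all genes. After centring 4 were lower, where 11.2% of all genes were. CLDN2, the claudin of the leaky tubular junction, was 11, 10.50 and 10.36 in vehicle cells, 8.36, 8.78 and 8.91 with the low dose and 7.21, 7.53 and 8.25 with the high dose (-1.02 ± 0.23, adjusted p = 0.00148). CDH6, the cadherin of the developing proximal tubule, fell from 10.63, 11.30 and 10.71 to 9.87, 10.19 and 9.62 (-0.99 ± 0.22, adjusted p = 0.00149). SLC3A1, the heavy chain of the cystine transporter, fell from 7.55, 7.54 and 7.26 to 6.99, 6.63 and 5.77 (-0.99 ± 0.26, adjusted p = 0.00656; 0.0778 without high-dose replicate 3). SLC4A4, the sodium bicarbonate cotransporter, fell by 0.79 ± 0.23 (adjusted p = 0.0139; 0.0545 to 0.0982 without high-dose replicates 1 and 3 or low-dose replicate 2, each left out alone), with pair differences of -0.91, -0.80 and -0.65. The carnitine transporter SLC22A5 fell by 0.42 ± 0.14 (adjusted p = 0.0303; 0.108 after centring, 0.468 after quantile normalization; 0.0591 to 0.138 without high-dose replicates 1 and 2 or low-dose replicate 2, each left out alone). All 8 were below vehicle with the low dose, where 23.2% of all genes were. Between the doses 3 were called without high-dose replicate 1 or 3.

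Among markers of tubular injury 4 of 21 were lower and none higher, or 19.0%, near the 17.3% of all genes. HAVCR1, the KIM-1 gene whose protein marks injured tubules in the kidney, was 10.98, 11.17 and 11.27 in vehicle cells, 9.78, 10.19 and 10.26 with the low dose and 9.07, 9.24 and 9.61 with the high dose (-0.77 ± 0.16, adjusted p = 0.000987). KRT19, the progenitor keratin, fell by 0.96 ± 0.15 (adjusted p = 4.6e-05), the developmental factor SOX4 fell by 0.56 ± 0.12 (adjusted p = 0.000956) and the surface protein CD24 fell by 0.60 ± 0.17 (adjusted p = 0.0107, 0.0729 after centring; 0.0652 to 0.105 without high-dose replicates 1 and 2 or low-dose replicate 3, each left out alone). The list's median was -0.15, and after centring 3 were lower and 1 higher. LCN2, the NGAL gene, was under 4 on all 6 arrays.

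Junction and keratin genes followed. Of 13 measured, 4 were lower and 1 higher, or 30.8% and 7.69% against 17.3% and 6.46% of all genes, with 2 higher after centring. CDH1, E-cadherin, fell from 6.10, 6.01 and 6.54 to 4.62, 4.82 and 5.51 (-1.23 ± 0.25, adjusted p = 0.000726, 0.0537 on the 6 arrays alone). SCEL, sciellin, a protein of stratified epithelium, fell from 9.51, 9.92 and 9.20 in vehicle cells to 6.17, 6.00 and 4.59 and then to 3.80, 4.29 and 3.71 (-1.65 ± 0.31, adjusted p = 0.000238), and KRT80 fell by 1.08 ± 0.21 (adjusted p = 0.000381). SFN, a 14-3-3 protein, rose by 0.60 ± 0.12 (adjusted p = 0.000619) after a fall with the low dose. KRT8 and KRT18, the keratins of simple epithelium, differed by -0.0032 ± 0.23 and 0.01 ± 0.12 (adjusted p = 0.995 and 0.964).

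Of 28 matrix genes 14 were below vehicle with the low dose, against 23.2% of all genes. The 28 moved little between the doses, with 3 lower, none higher and a median of -0.13. That is 10.7% lower, against 17.3% of all genes. With the block 7 were lower and 1 higher, and without low-dose replicate 2, 5 were lower. LOXL2, a collagen crosslinking oxidase, fell from 9.52, 9.39 and 9.53 to 8.76, 8.69 and 8.81 (-0.73 ± 0.13, adjusted p = 0.000156). COL1A1 fell by 0.69 ± 0.22 (adjusted p = 0.0242, 0.139 after quantile normalization; 0.0518 to 0.0974 without high-dose replicates 2 and 3 or low-dose replicates 1 and 3, each left out alone), with probe sets from -0.69 to 0.09, and FN1, fibronectin, fell by 0.23 ± 0.06 (adjusted p = 0.00666, 0.384 after centring). Among the fibroblast, endothelial and leukocyte markers 18 of 21 lay under background at each dose, and the mean of the 21 was 3.42 to 3.49 on the low-dose and 3.38 to 3.49 on the high-dose arrays. COL1A1 is the 1 of the 4 tested that was called, and DCN differed by -0.17 ± 0.15 (adjusted p = 0.46). Their part in the matrix values was not tested. Of 3 distal nephron genes tested, the sodium channel subunit SCNN1A fell by 0.55 ± 0.13 (adjusted p = 0.00312, 0.0644 after quantile normalization).

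Of 24 NF-kB targets and cytokine genes 2 were lower and none higher, or 8.33% lower against 17.3% of all genes. TNFSF10, the death ligand TRAIL, fell from 12.22, 12.58 and 12.31 in vehicle cells to 9.33, 10.26 and 10.59 and 8.30, 9.06 and 9.16 (-1.22 ± 0.22, adjusted p = 0.0002), while its decoy receptor TNFRSF10D rose. CXCL8, the neutrophil chemoattractant, had risen with the low dose and came back to about the vehicle level, at 11.97, 12.17 and 12.58, then 13.37, 13.10 and 12.81, then 12.58, 12.31 and 11.51 (-0.96 ± 0.19, adjusted p = 0.000475). With the block and after centring 2 were higher and 2 lower, and the called number was 5 without high-dose replicate 1 and 6 without low-dose replicate 3. IL6 was near background and differed by -0.29 ± 0.53 (adjusted p = 0.75).

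Of 25 interferon-stimulated genes 6 were lower and none higher, with a median of -0.18, or 24.0% lower against 17.3% of all genes. After centring and after quantile normalization 3 were lower, where 11.2% and 11.6% of all genes were. Beside IFI35, the immunoproteasome subunit PSMB9 fell from 6.27, 6.63 and 6.55 to 5.15, 5.57 and 5.76 (-0.99 ± 0.13, adjusted p = 2.5e-06) and IFIH1, the RNA sensor MDA5, from 6.85, 7.17 and 6.78 to 5.29, 6.40 and 5.91 (-1.07 ± 0.23, adjusted p = 0.000968). At 24 h the IFIH1 difference was 0.12 (adjusted p = 0.872), and the change between the times did not itself pass the test. IFI44 fell by 0.97 ± 0.33 (adjusted p = 0.0334, 0.0729 after centring and 0.181 after quantile normalization; 0.0797 to 0.183 without high-dose replicate 1 or low-dose replicates 2 and 3, each left out alone). IRF9, part of the interferon-activated factor, fell by 0.53 ± 0.15 (adjusted p = 0.0108, 0.0713 after centring, 0.261 after quantile normalization and 0.0697 without high-dose replicate 2).

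Immediate early genes went both ways, with 6 of 25 higher and 3 lower, or 24.0% and 12.0% against 6.46% and 17.3% of all genes. After centring 9 were higher and 2 lower. EGR1, a zinc finger factor that growth signals induce, fell from 9.43, 10.23 and 9.59 to 8.01, 8.12 and 8.21 (-1.63 ± 0.15, adjusted p = 1.9e-08), a 3.1-fold drop that passed under every alternative tried. The AP-1 subunits differed from each other. JUND fell by 0.56 ± 0.13 (adjusted p = 0.00245), whereas FOSL2 rose by 0.44 ± 0.11 (adjusted p = 0.00336) and JUN by 0.48 ± 0.17 (adjusted p = 0.0447; 0.0638 to 0.15 without high-dose replicates 1 and 2 or low-dose replicates 1, 2 and 3, each left out alone), beside FOSL1. The phosphatases that shut off MAP kinases split too. DUSP5 rose by 0.48 ± 0.16 (adjusted p = 0.0333; 0.0819 to 0.134 without high-dose replicates 1 and 2 or low-dose replicates 2 and 3, each left out alone) and DUSP1 by 0.44 ± 0.15 (adjusted p = 0.0332; 0.203 without high-dose replicate 2 and 0.16 without low-dose replicate 1), and DUSP6 fell by 0.39 ± 0.13 (adjusted p = 0.0251, 0.132 after centring; 0.076 to 0.11 without high-dose replicate 1 or low-dose replicates 2 and 3, each left out alone). The FOSL1 call was lost at 0.0804 to 0.244 without high-dose replicates 1 and 3 or low-dose replicates 1 and 2, each left out alone. Without high-dose replicate 1 or 2, or low-dose replicate 1 or 2, 2 of the list were higher.

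Of 29 lysosome and autophagy genes 2 were higher and 5 lower, or 6.90% and 17.2%, near the 6.46% and 17.3% of all genes. After centring it was 4 and 1, and with the block 4 and 7, so the direction of this list turned with the scaling. WIPI1, which acts early in autophagosome formation, fell from 9.27, 8.90 and 8.50 to 8.51, 8.36 and 7.76 (-0.68 ± 0.16, adjusted p = 0.00317). NPC1, which moves cholesterol out of lysosomes, fell by 0.43 ± 0.12 (adjusted p = 0.00674, 0.0917 after centring), and its 2 probe sets gave -0.43 and 1.05. Without high-dose replicate 2 or low-dose replicate 1, 2 of the list were lower and none higher, and without high-dose replicate 3, 3 and 1. Of 18 apoptosis regulators PMAIP1 was higher and BAX lower, as above, or 5.56% each way against 6.46% and 17.3% of all genes. After centring 2 were higher and 1 lower. The PMAIP1 call was lost at 0.071 without low-dose replicate 1 and the BAX call at 0.0503 without high-dose replicate 2. Of 18 YAP targets 1 was higher and 1 lower, again 5.56% each way. It was 1 and 3 with the block and 1 and none after centring. GADD45B, a stress sensor, rose by 0.69 ± 0.24 (adjusted p = 0.0359; 0.0567 to 0.143 without high-dose replicates 1, 2 and 3 or low-dose replicates 1 and 2, each left out alone) and TEAD1, the factor that YAP binds, fell by 0.39 ± 0.11 (adjusted p = 0.0093, 0.157 after centring), with TEAD1 probe sets from -0.39 to 0.40.

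At 24 h fewer genes passed between the same doses. There 487 genes passed (4.39%), 76 higher (0.685%) and 411 lower (3.71%), and 1171 with the replicate block. After centring 178 were higher and 218 lower, and with 1 array left out 196 to 378 passed. Of the 487, 422 were also called at 48 h, all in the same direction, which is 86.7% of the 24 h calls and 16% of those at 48 h. Over all genes the differences of the 2 times correlated at r = 0.76, a description across genes of separate arrays. HMOX1 differed by 1.43 at 24 h (adjusted p = 6.8e-05) against 0.92 at 48 h. SRXN1 and TXNRD1, which missed the threshold at 48 h, were higher by 0.55 and 0.56 at 24 h (adjusted p = 0.0403 and 0.0028), and BAG3 by 0.79 (adjusted p = 0.00312). TXNRD1 at 48 h reached 0.0423 without high-dose replicate 3 and 0.0471 after centring. For HMOX1, SRXN1, TXNRD1 and BAG3 the change between the times did not pass the test given below. Of 21 heat shock genes 7 were higher at 24 h and of 34 NRF2 targets 5, against 0.685% of all genes. Of 12 genes of the metallothionein and zinc list 1 was lower, against 3.71% of all genes.

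Whether the dose difference itself changed from 24 h to 48 h was tested with the interaction of dose and time. It passed for 13 genes (0.117%), 12 of which moved down and 1 up, for 88 with the replicate block and for 8 after centring. Leaving out 1 of the 12 arrays gave 4 to 45 genes, with 45 without high-dose replicate 3 and 22 without low-dose replicate 3 of the 48 h groups. At an unadjusted p under 0.05, 699 genes passed. DCLK1 changed most, from -0.72 at 24 h to -2.50 at 48 h, followed by TM7SF2, from -0.67 to -2.22. CYP2U1, a cytochrome P450 that hydroxylates fatty acids, had a difference of 0.01 at 24 h and of -1.24 at 48 h. ADCY3, an adenylyl cyclase found in cilia, went from -0.25 to -1.23, and MUC1, a mucin of the apical surface, from -0.80 to -1.51. Of the gene lists, cholesterol synthesis held 1 of the 13 and no other list held any.

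**Figure D5:**
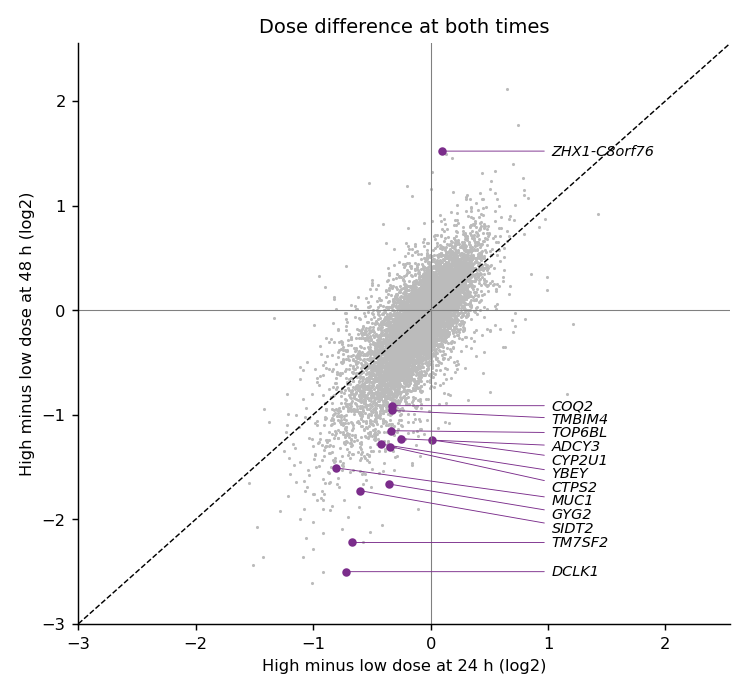
Difference between the doses at 48 h (log2, y axis) against that at 24 h (log2, x axis) for 11092 genes, with the dashed line where both are equal and the 13 genes past the interaction test in purple. Of the 13, 12 lie below the line, at -2.50 for DCLK1 against -0.72 at 24 h, and ZHX1-C8orf76 lies above it, at 1.52 against 0.09.

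Set beside vehicle, the low dose at 48 h already moved 5212 genes (47.0%), 2642 up and 2570 down, and the high dose 6855 (61.8%), 3031 up and 3824 down. These comparisons share arrays with each other and with the comparison of doses, so they are given side by side only. Heat shock genes stood at a median of 0.51 above vehicle with the low dose and 1.00 with the high dose, and NRF2 targets at 0.89 and 1.10. ER chaperones stood at 0.84 and 0.91. ATF4 genes stood at 0.96 and 0.37, and genes of the metallothionein and zinc list at -0.83 and -1.57. Proximal tubule genes stood at -1.18 and -1.71, and cholesterol genes at -0.35 and -0.66.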

How the data were processed

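RNA from HK-2 cells was hybridised to Affymetrix HG-U133 Plus 2.0 arrays with 54675 probe sets. The authors deposited log2 expression values made with GCRMA, per the submitters' processing notes. GCRMA corrects background by probe sequence, quantile-normalizes the arrays and summarises each probe set, but which settings were used is not given in the sources used here. Quantile normalization makes the arrays' distributions alike, so a shift of all genes could not be seen.

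A probe set was kept with a single gene name and a value above 4 on at least 3 of 36 arrays. The probe set with the highest mean stood for its gene, which left 11092 genes. Of the probe sets other than 62 controls, 41091 named 1 gene, 1801 several and 11721 none. A model of 12 group means was fitted over all 36 arrays with limma 3.58.1 (R 4.3.3), with Benjamini-Hochberg adjustment over all 11092 genes and a threshold of 0.05. It was tested on simulated data in which every array varied independently. Those data lacked the pairing by replicate number described below, so how often the fit errs under that pairing was not tested. The 3 arrays a group limit the precision, the median SE being 0.16, and p-values measure the spread between arrays that the labels call biological replicates.

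Replicate numbers pair the arrays by the data alone. In the 18 arrays of the Kbr set, the deviations from group means correlated at 0.22 to 0.70 in all 45 same-numbered pairs, against a median of -0.23 for different numbers, and 18 of 18 arrays were closest to one of their own number. The labels do not say what a number marks, and the block was therefore an alternative.

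The genes named were index genes of stress programs, the 12 largest rises and falls whose groups did not overlap, members of 28 gene lists (the 4 largest passing each way and members of a shared role) and the 6 largest changes with time each way. Genes, lists and comparison were chosen with earlier results of these data known. Alternatives were other filters, median centring, quantile normalization, averaging the probe sets of a gene, a variance trend, array weights, fits of fewer arrays, the replicate block and leaving out each array. Where a group mean lay under 4, a fold is given against 4 as "at least". Promoter windows are RefSeq's (GRCh38.p14), and the metal response motif was added after values had been seen. The other 18 arrays of the series entered the filter, the choice of probe set and the estimate of spread.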

Additional observations from a re-analysis of the deposited data

Results flagged for a closer look

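The difference between the doses changed from 24 h to 48 h for 13 genes, by limma's test of the interaction with adjustment over all genes. The change was downward for 12, and all 13 changes were computed from the same 12 arrays. DCLK1, the microtubule-associated kinase, changed by -1.78 ± 0.23 (SE, adjusted p = 0.00017), TM7SF2, the sterol reductase, by -1.56 ± 0.32 (adjusted p = 0.0361) and ADCY3, the adenylyl cyclase, by -0.98 ± 0.15 (adjusted p = 0.00127). YBEY, a mitochondrial RNA-processing enzyme, changed by -0.86 ± 0.14 (adjusted p = 0.00382), and the read-through transcript ZHX1-C8orf76 by 1.43 ± 0.15 (adjusted p = 3.8e-06), the only upward change. DCLK1, ADCY3, YBEY and ZHX1-C8orf76 passed with each of the 12 arrays left out in turn.

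TM7SF2 passed in 5 of those 12 fits, with an adjusted p of up to 0.136. The other 8 genes passed in 1 to 9 of them. GYG2, a glycogenin of the liver, changed by -1.31, CYP2U1 by -1.25, SIDT2, a lysosomal membrane protein, by -1.13, CTPS2, a CTP synthase, by -0.96 and TOP6BL, which acts with SPO11 in meiosis, by -0.81. MUC1 changed by -0.71, TMBIM4, a Golgi anti-apoptotic protein, by -0.63 and COQ2, an enzyme of coenzyme Q synthesis, by -0.58. After median centring GYG2, TOP6BL, MUC1, TMBIM4 and COQ2 missed the threshold, with adjusted p from 0.0793 to 0.268. Other probe sets of DCLK1 and MUC1 gave dose differences at 48 h as small as -0.20 and -0.13.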

How the results depend on the processing

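At 48 h the count of 2638 genes ran from 1914 in the fit of the 18 Kbr arrays to 3705 under the alternatives tried, except that fitting only the 6 arrays compared gave 647. Of 134 named genes past the test 100 passed in the Kbr arrays and 47 in the 6. With 1 array left out it was 2010 to 2687. At 24 h the 487 genes became 241 after quantile normalization, 108 in the fit of the 18 Kbr arrays, 38 in the fit of the 6 arrays compared, 1171 with the replicate block, 1020 with the block in the Kbr arrays, and 196 to 378 with 1 array left out. The 13 genes whose dose difference changed with time became 3 after quantile normalization, 8 after median centring, 3 in the Kbr arrays, 133 with array weights, 88 with the replicate block, 31 with the block in the Kbr arrays, and 4 to 45 with 1 array left out. By limma on only the 12 arrays compared none passed (0 genes, smallest adjusted p 0.0827), and 541 genes had an unadjusted p under 0.05. The low dose against vehicle gave 3445 genes in the fit of the 6 arrays compared. With probe sets averaged per gene 123 of the 134 passed. Of the others, 9 kept their sign but lost the call, among them TXN (adjusted p = 0.189), FOSL2 (0.0842) and FN1 (0.492). The remaining 2 changed sign, NPC1 to 0.31 (adjusted p = 0.128) and TEAD1 to 0.11 (adjusted p = 0.612), since their probe sets disagree. Beside the 134, genes such as SQLE (0.215), DUSP1 (0.0983), DHCR7 (0.0845) and SREBF2 (0.821) also lost their calls. Of the named genes past the test none lost its call with the replicate block, which pairs the arrays by number, and with the block in the Kbr arrays ASNS (adjusted p = 0.0778) and JUN (0.0505) lost theirs and MKI67 gained one (0.0171). Why the other counts moved was not tested. With 3 arrays a group and a median SE of 0.16, small changes are within reach only of the least variable genes, and values near the background of 4 understate differences.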

Other observations

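Genes with cilium symbols, not only those of the primary cilium, were more often lower than higher with the high dose. The group was chosen by symbol after values were seen, so its count is a description. The prefixes sought were CFAP, BBS, IFT, B9D, TCTN, DNAAF, NPHP and DRC. Single genes were named too: TMEM67, TMEM107, TMEM216, TMEM231, EFHB and CYS1. CYS1 was already known as one of the largest falls of all genes when it was named. Of 67 measured, 31 were lower and 2 higher, or 46.3% and 2.99% against 17.3% and 6.46% of all genes. The median was -0.35 against -0.06 over all genes. After median centring 23 were lower and 4 higher, where 11.2% and 13.5% of all genes were. Among the large falls were those of B9D1, of the gate at the cilium's base, from 6.57, 6.51 and 6.31 to 4.42, 3.93 and 5.04 (-1.99 ± 0.25, adjusted p = 1.2e-06), and of the Bardet-Biedl genes BBS1 and BBS2, which carry membrane proteins into the cilium. BBS1 went from 6.66, 6.29 and 6.35 to 4.74, 5.21 and 4.39 (-1.65 ± 0.21, adjusted p = 1.7e-06) and BBS2 from 7.43, 7.41 and 6.84 to 6.09, 5.51 and 4.62 (-1.82 ± 0.27, adjusted p = 1.4e-05). In none of these 3 did the doses overlap. IFT88, a core subunit of intraflagellar transport, fell by 0.91 ± 0.15 (adjusted p = 6.8e-05) and TCTN3, of the same gate, fell by 0.81 ± 0.09 (adjusted p = 1.6e-07). The 2 that rose were IFT25 (0.31 ± 0.10; adjusted p = 0.0246; 0.0522 to 0.181 without high-dose replicates 1 and 3 or low-dose replicates 1 and 2, each left out alone) and CFAP20 (0.40 ± 0.11; adjusted p = 0.00685; 0.0625 without high-dose replicate 2 and 0.0824 without low-dose replicate 1). At 24 h 13 of the 67 were lower and none higher. Other probe sets of B9D1 gave differences as small as -0.11.

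Zinc finger genes of the ZNF series ran the other way. Of 355 measured, 47 were higher and 22 lower, with a median of 0.10, or 13.2% and 6.20% against 6.46% and 17.3% of all genes. After quantile normalization 85 were higher and 12 lower, where 10.2% and 11.6% of all genes were. Without high-dose replicate 2, 28 were higher and 23 lower, and without high-dose replicate 3, 71 and 14. ZNF473, which takes part in histone mRNA processing, was 7.73, 8.41 and 8.19 with the low dose and 9.16, 9.32 and 9.04 with the high dose (1.06 ± 0.19, adjusted p = 0.000146), with no overlap. ZNF649 rose by 1.12 ± 0.27 (adjusted p = 0.00286) and ZNF362 fell by 1.27 ± 0.21 (adjusted p = 7.9e-05). Of 195 SLC transporter genes 5 were higher and 55 lower (median -0.19), or 2.56% and 28.2% against 6.46% and 17.3% of all genes. After centring 14 were higher and 42 lower. Of 75 mitochondrial ribosomal protein genes 4 were higher and 8 lower, or 5.33% and 10.7% against 6.46% and 17.3% of all genes, and 11 and 3 after centring. These groups too were chosen by symbol after values were seen.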
